A study of Homo sapiens with 60 samples.

Results

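Glutathione synthesis and the thioredoxin pathway are described here through 10 genes: GCLC, GCLM, GSS, GSR, SLC7A11, TXNRD1, TXN, SRXN1, PRDX1 and GPX2. They were chosen by name, with earlier results of these data known. All 10 were found by symbol among the 60675 gene identifiers of the count table, and all 10 passed the low-count filter that left 16982 genes for testing. RNA was sequenced from HepG2, a long-established cell line of human hepatocellular carcinoma, 24 h after addition of an extract made with 70% ethanol or of vehicle. Every group used this single line. There were 60 libraries in 25 groups. A pair of herbs had a top dose set by growth inhibition: Aucklandiae Radix was given at 11.2, 56 and 280 ug/mL and Polygalae Radix at 10, 50 and 250 ug/mL, with 2 libraries per dose. Doses of 20, 100 and 500 ug/mL were used for Menthae Herba, Saposhnikoviae Radix and the herbal formulas Guibi-tang and Saengmaek-san, with 3 libraries per dose, for the formula Soyo-san with 2 and for the formula Okbyeongpung-san with 1. Vehicle, with 3 libraries, was DMSO, at 0.1% in the sample labels and 2% in the design text. Sets are named here after the first part of the sample codes, and the labels do not say what that part stands for. Aucklandiae Radix and Polygalae Radix shared set 11, and Menthae Herba and Saposhnikoviae Radix set 12. Guibi-tang and Saengmaek-san shared set 13, and Soyo-san and Okbyeongpung-san set 14. Vehicle carried a set label of its own, D1. The titles of all libraries, vehicle included, name batch D.

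Glutathione is the main small thiol of liver cells. It is made from glutamate, cysteine and glycine in consecutive steps, and cysteine supply, often as imported cystine, limits its production. Thioredoxin is the parallel protein thiol system: it is reduced by thioredoxin reductase with NADPH and passes electrons to peroxiredoxins, which remove hydrogen peroxide. Many genes of both systems are textbook targets of the transcription factor NRF2, which is held in check by KEAP1 and binds antioxidant response elements, and the cystine transporter is also a target of ATF4, a factor of the amino acid and stress response.

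The promoters of GCLM, TXNRD1 and GPX2 are shown because, of the 6 members scanned, these had 300-base windows that held the core of the antioxidant response element. GCLM and TXNRD1 were higher at the high dose of most extracts. GPX2 was much lower after Aucklandiae Radix, and over the 7 extracts tested it was called higher in 3 and lower in 2. RefSeq (GRCh38.p14) windows from 250 bases before to 50 bases after the gene start were scanned for 6 of the 10 members. These were GCLC, GCLM, TXNRD1, TXN, SRXN1 and GPX2, with 2 windows for TXNRD1. The core was searched as TGACNNNGC on both strands, and matches are in capitals, so a match on the opposite strand ends in GTCA. Sequences run 5′ to 3′ on the strand of the gene.
GCLM: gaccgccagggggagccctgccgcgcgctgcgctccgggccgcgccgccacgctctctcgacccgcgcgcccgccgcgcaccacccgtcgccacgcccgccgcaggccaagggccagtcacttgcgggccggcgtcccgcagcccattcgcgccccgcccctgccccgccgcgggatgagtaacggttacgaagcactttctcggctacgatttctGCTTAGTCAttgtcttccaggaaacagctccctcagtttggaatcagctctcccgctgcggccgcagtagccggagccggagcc
TXNRD1 upstream window: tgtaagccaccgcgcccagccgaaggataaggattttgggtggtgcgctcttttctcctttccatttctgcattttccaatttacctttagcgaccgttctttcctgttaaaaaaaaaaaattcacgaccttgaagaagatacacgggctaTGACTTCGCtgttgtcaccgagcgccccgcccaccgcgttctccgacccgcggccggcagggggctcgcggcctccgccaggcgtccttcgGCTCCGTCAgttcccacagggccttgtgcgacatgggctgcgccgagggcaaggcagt
TXNRD1 downstream window: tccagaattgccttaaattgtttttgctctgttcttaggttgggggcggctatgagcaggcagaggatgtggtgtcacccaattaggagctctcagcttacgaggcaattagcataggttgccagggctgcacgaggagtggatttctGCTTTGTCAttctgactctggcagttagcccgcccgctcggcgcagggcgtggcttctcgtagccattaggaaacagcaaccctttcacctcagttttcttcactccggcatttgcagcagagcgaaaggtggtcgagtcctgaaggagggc
GPX2: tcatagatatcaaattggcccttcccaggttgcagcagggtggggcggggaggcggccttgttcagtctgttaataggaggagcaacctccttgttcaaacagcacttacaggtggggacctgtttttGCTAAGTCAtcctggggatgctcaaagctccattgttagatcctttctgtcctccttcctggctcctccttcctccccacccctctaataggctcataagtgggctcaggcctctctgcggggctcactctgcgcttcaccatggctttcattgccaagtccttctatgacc
The GCLM window is chr1:93909381-93909680 on the minus strand, and its match starts 34 bases before the gene start. The TXNRD1 windows are chr12:104215529-104215828 and chr12:104286782-104287081 on the plus strand. The upstream one holds matches starting 99 and 8 bases before its start, which share no base, and the downstream one holds a match starting 102 bases before its start. The GPX2 window is chr14:64942696-64942995 on the minus strand, with a match starting 122 bases before the start. No match lay in the windows of GCLC, TXN or SRXN1. Of all 35116 windows of the same length in the table, 13.3% held the core, so a match describes the letters and no more. The core of the amino acid response element, TGATGNAA, lay in 3.62% of windows and in none of the members' windows that were scanned.

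Libraries held between 17518496 and 38905920 counts, with a median of 23674023. Levels are given as CPM, counts scaled to library sizes adjusted by the TMM method, and every member had at least 634 counts in every library. Summed CPM of 8 hepatocyte and hepatoma markers were 21019 to 21501 at the high dose of Aucklandiae Radix, 15949 to 19758 at that of Polygalae Radix, 22660 to 26204 at that of Menthae Herba and 34745 to 36007 at that of Guibi-tang, against 47807 to 51973 in vehicle. Markers of other cell types were not absent as sums: 6 blood cell markers came to between 570.0 and 1696 CPM per library, nearly all from LYZ, with HBB at 0 and PTPRC and CD3E under 0.5 CPM throughout, and 7 stroma markers to between 12.6 and 74.2 CPM, with DCN at 0. The 4 endothelial markers came to between 2.06 and 6.30 CPM and the 6 lung and gut markers to between 72.9 and 357 CPM, with 5 of the 6 under 0.5 CPM throughout. At the high doses of Aucklandiae Radix and Polygalae Radix and in vehicle the blood sums were 689 to 718, 570.0 to 638 and 1032 to 1078 CPM, the stroma sums 26.6 to 31.2, 12.6 to 15.5 and 71.9 to 74.2 CPM, and the lung and gut sums 72.9 to 79.2, 77.8 to 83.4 and 318 to 340.0 CPM. Mitochondrial genes took 8.02 to 8.17% of counts at the high dose of Aucklandiae Radix, 17.5 to 17.7% at that of Polygalae Radix and 15.8 to 19.1% in vehicle. The part of these shifts in the members' values was not tested. In bulk RNA fewer cells of a kind and less RNA per cell cannot be told apart. The labels do not say that replicates came from separate cultures, so p-values measure only how these libraries vary, and that variation may be technical.

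High doses were first set against low doses of the same extract, which come from the same set. The thioredoxin reductase gene TXNRD1 and the sulfiredoxin gene SRXN1 rose in all 7 extracts tested, GCLM and GSR in 6 and GCLC in 5. SLC7A11, TXN and PRDX1 rose in 3 extracts each, and TXN and PRDX1 fell in 1. GPX2 rose in 3 and fell in 2, and GSS rose in 1 and fell in 2. The counts rest on edgeR's quasi-likelihood test with Benjamini-Hochberg adjustment over 16982 genes, called under 0.05, and the number of members called has to be read against the share of all genes called in the same comparison. That share was high for Aucklandiae Radix (69.4%) and Polygalae Radix (64.1%), intermediate for Guibi-tang (34.3%) and Menthae Herba (23.3%), and low for Soyo-san (3.95%), Saposhnikoviae Radix (0.830%) and Saengmaek-san (0.436%). The members called in these extracts numbered 10, 6, 10, 9, 6, 5 and 4 of 10, in the same order. Because members were chosen with earlier results of these data known, such counts are descriptions and no independent support.

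**Figure D1:**
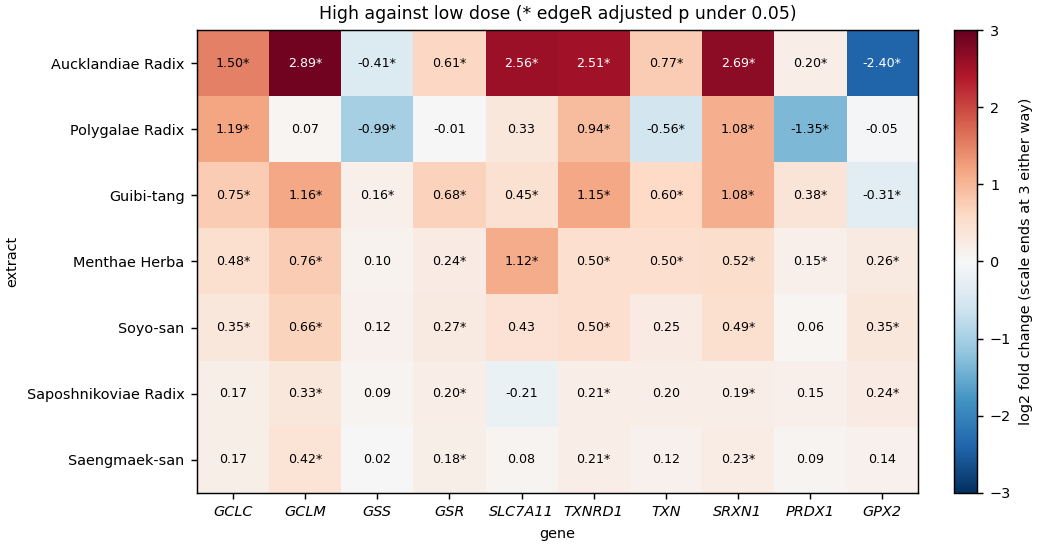
Log2 fold changes of the 10 members at the high against the low dose of 7 extracts, with genes in columns, extracts in rows and an asterisk where the edgeR adjusted p was under 0.05. The columns of TXNRD1 and SRXN1 are positive and called in every row, GPX2 is at -2.40 for Aucklandiae Radix, and PRDX1 is at -1.35 for Polygalae Radix.

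Aucklandiae Radix at 280 ug/mL gave the largest log2 fold changes of the 7 high-against-low comparisons in 7 members: GCLC, GCLM, SLC7A11, TXNRD1, TXN, SRXN1 and, downward, GPX2. It raised 8 members and lowered 2, where 33.9% of all genes were called higher and 35.5% lower. In glutathione synthesis, the modifier subunit of glutamate-cysteine ligase moved more than the catalytic one. GCLM, the modifier subunit, was at 311 and 296 CPM at the high dose, against 41.6 and 41.0 CPM at the low dose. This was a 7.41-fold difference (log2 fold change 2.89 ± 0.07 SE, adjusted p = 5.9e-35, edgeR's quasi-likelihood test with Benjamini-Hochberg adjustment). GCLC, the catalytic subunit that joins glutamate and cysteine, was at 248 and 264 CPM, against 93.5 and 88.6 CPM, a log2 fold change of 1.50 ± 0.06. GSS, glutathione synthetase, which adds glycine in the final step, went the other way, with 53.4 and 56.0 CPM at the high and 72.7 and 73.3 CPM at the low dose and a log2 fold change of -0.41 ± 0.05. The libraries of the high and the low dose did not overlap for any of the 3 genes. How many of all genes did not overlap was not counted.

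Cystine import and thioredoxin recycling moved with GCLM after Aucklandiae Radix. SLC7A11, the cystine-importing subunit of system xc-, was at 349 and 308 CPM at 280 ug/mL, against 55.5 and 57.1 CPM at 11.2 ug/mL, 5.88-fold higher (log2 fold change 2.56 ± 0.17). Its partner SLC3A2, the heavy chain that carries the transporter to the membrane, averaged 639 and 181 CPM in the same groups and rose by 1.83 ± 0.08 on the log2 scale. TXNRD1, cytosolic thioredoxin reductase, reached 1222 and 1144 CPM, against 208 and 209 CPM, a log2 fold change of 2.51 ± 0.05. SRXN1, sulfiredoxin, which repairs overoxidised peroxiredoxins, was at 639 and 628 CPM, against 97.9 and 99.5 CPM, 6.47-fold higher (log2 fold change 2.69 ± 0.05). In each of these members the low-dose libraries lay far under the high-dose ones.

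TXN, GSR and PRDX1 moved less than these genes, while GPX2 fell strongly. TXN, thioredoxin itself, was at 226 and 228 CPM at the high dose of Aucklandiae Radix, against 135 and 134 CPM at the low dose, with a log2 fold change of 0.77 ± 0.08. GSR, which reduces oxidised glutathione with NADPH, was at 314 and 316 CPM, against 213 and 204 CPM, a log2 fold change of 0.61 ± 0.04. PRDX1, an abundant cytosolic peroxiredoxin, was at 673 and 719.8 CPM, against 613 and 608 CPM. Its log2 fold change of 0.20 ± 0.06 passed the test (adjusted p = 0.0024, edgeR's quasi-likelihood test with Benjamini-Hochberg adjustment) but not without high-dose replicate 3, when it was 0.14 with an adjusted p of 0.077. GPX2, a glutathione peroxidase best known from gut epithelium, was the member that fell most, with 70.4 and 71.1 CPM, against 374 and 380.1 CPM. That is 5.28-fold lower (log2 fold change -2.40 ± 0.08, adjusted p = 1.7e-28 by edgeR).

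**Figure D2:**
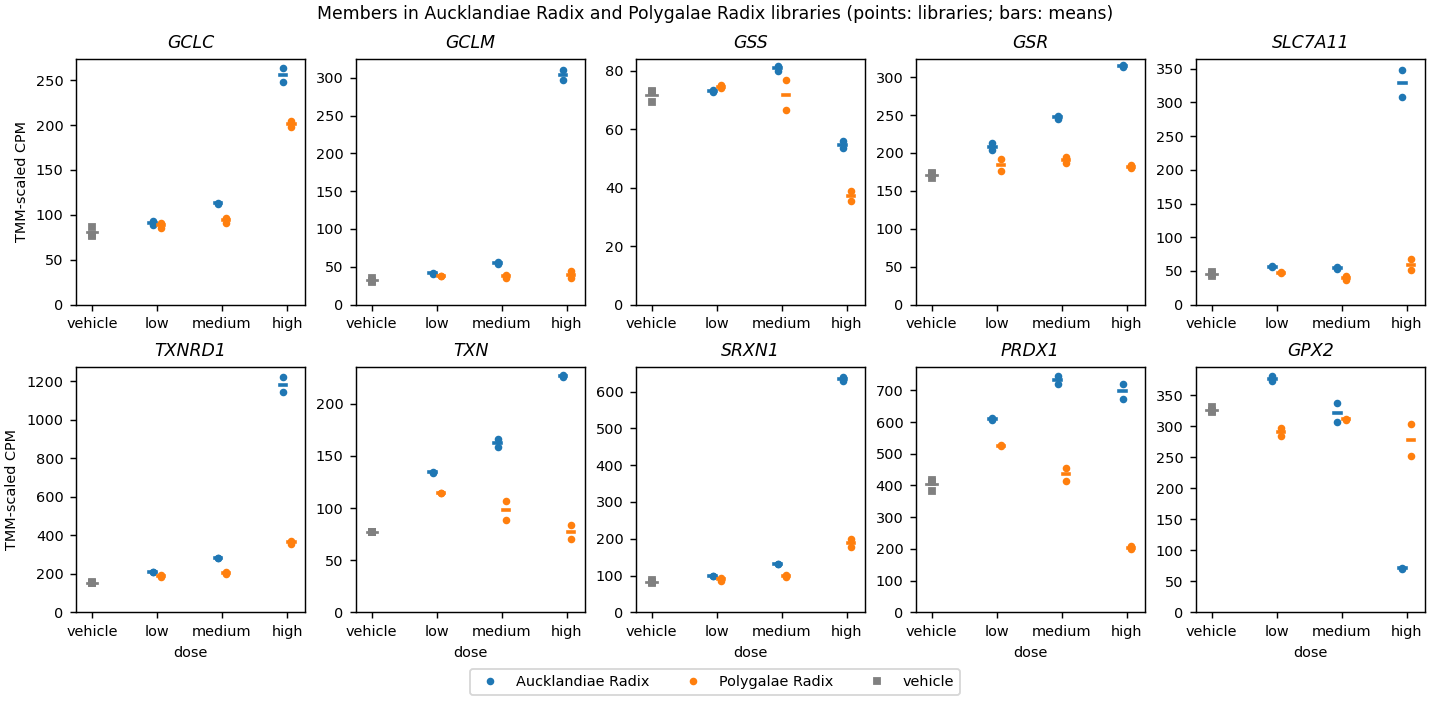
TMM-scaled CPM of the 10 members by dose of Aucklandiae Radix (blue) and Polygalae Radix (orange) and in vehicle (grey squares), with a point for each library and a bar at each group mean. GCLM, SLC7A11, TXNRD1 and SRXN1 climb steeply at the high dose of Aucklandiae Radix, GPX2 drops to 70.4 and 71.1 CPM there, and PRDX1, TXN and GSS are lower at the high dose of Polygalae Radix.

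Polygalae Radix at 250 ug/mL raised 3 members and lowered 3, where 31.1% of all genes were called higher and 33.0% lower, a share of members near that of all genes. GCLC was at 198 and 204 CPM, against 85.3 and 91.3 CPM at 10 ug/mL, 2.29-fold higher (log2 fold change 1.19 ± 0.06, adjusted p = 1.7e-23, edgeR's quasi-likelihood test with Benjamini-Hochberg adjustment). SRXN1 was at 198 and 178 CPM, against 85.4 and 93.5 CPM, with a log2 fold change of 1.08 ± 0.05, and TXNRD1 at 355 and 371 CPM, against 185 and 195 CPM, with 0.94 ± 0.04. The 3 that fell were a synthesis enzyme, thioredoxin and its peroxiredoxin substrate. GSS was at 38.9 and 35.4 CPM, against 73.9 and 75.0 CPM (log2 fold change -0.99 ± 0.05). PRDX1 was at 199 and 209.5 CPM, against 527 and 524 CPM, 2.55-fold lower (log2 fold change -1.35 ± 0.06). TXN was at 70.0 and 84.2 CPM, against 115 and 114 CPM, with a log2 fold change of -0.56 ± 0.09, which was -0.36 with a trend on GC content and transcript length taken out. All 6 had groups that did not overlap, which with 2 libraries per dose is a description. The share of all genes without overlap was not counted.

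Among the 4 members without a call after Polygalae Radix, GCLM stood out because its partner subunit GCLC had risen. GCLM was at 35.7 and 43.8 CPM at the high dose, on either side of the 37.8 and 38.4 CPM at the low dose, and its log2 fold change was 0.07 ± 0.07 with a 95% interval of -0.08 to 0.21. GSR had a log2 fold change of -0.01 (-0.10 to 0.08), GPX2 of -0.05 (-0.20 to 0.10) and SLC7A11 of 0.33 (-0.02 to 0.68). The values of GCLM, SLC7A11 and GPX2 depended on replicate 2 of the high dose. Without it, GCLM had a log2 fold change of 0.20, SLC7A11 of 0.52 and GPX2 of -0.20. That fit left 1 library at the high dose, so only the sizes are given. With a trend on GC content and transcript length taken out, GPX2 had a log2 fold change of 0.15, of opposite sign and called.

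The difference in dose response between the extracts of set 11 was itself tested, as Aucklandiae Radix minus Polygalae Radix. All 10 members differed, against 60.1% of all genes tested (31.4% with the higher response to Aucklandiae Radix and 28.7% with the lower), and 9 of the 10 had the higher response to Aucklandiae Radix. The size ran from 0.31 ± 0.08 on the log2 scale for GCLC (adjusted p = 0.00065, edgeR's quasi-likelihood test with Benjamini-Hochberg adjustment) to 2.82 ± 0.10 for GCLM. SLC7A11 differed by 2.22 ± 0.24, SRXN1 by 1.62 ± 0.07, TXNRD1 by 1.57 ± 0.06, PRDX1 by 1.55 ± 0.08 and TXN by 1.33 ± 0.12. GPX2 was the exception, at -2.35 ± 0.11. Top doses were set by inhibition for both herbs, at 20% (IC20) in the design text. In ug/mL the doses were not equal. Extract, concentration and the inhibition reached in these libraries cannot be told apart.

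The RNA ratio of the 2 subunits of glutamate-cysteine ligase set the high doses of Aucklandiae Radix and Polygalae Radix apart. The ratio of GCLC to GCLM in CPM, which is not corrected for transcript length and is compared here only between libraries, was 0.797 and 0.890 at the high dose of Aucklandiae Radix, against 2.25 and 2.16 at its low dose. It was 5.54 and 4.66 at the high dose of Polygalae Radix, against 2.25 and 2.38 at its low dose. Both high-dose groups lay outside the range of all other libraries, on opposite sides. At the high dose of Guibi-tang the ratio was 1.55, 1.49 and 1.54, against 2.02, 2.07 and 2.03 at its low dose. It was also lower at the high than at the low dose of Menthae Herba (1.85, 1.71 and 1.79 against 2.28, 2.06 and 2.15), of Saengmaek-san (1.77, 1.72 and 1.65 against 2.19, 1.93 and 1.99), of Soyo-san (1.74 and 1.60 against 2.00 and 2.12) and of Saposhnikoviae Radix (1.87, 1.82 and 1.93 against 2.09, 2.16 and 2.02), with no overlap of the doses in any of these. Vehicle was at 2.45, 2.48 and 2.57, above every low-dose library. These ratios are a description and were not tested apart from the 2 genes.

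**Figure D3:**
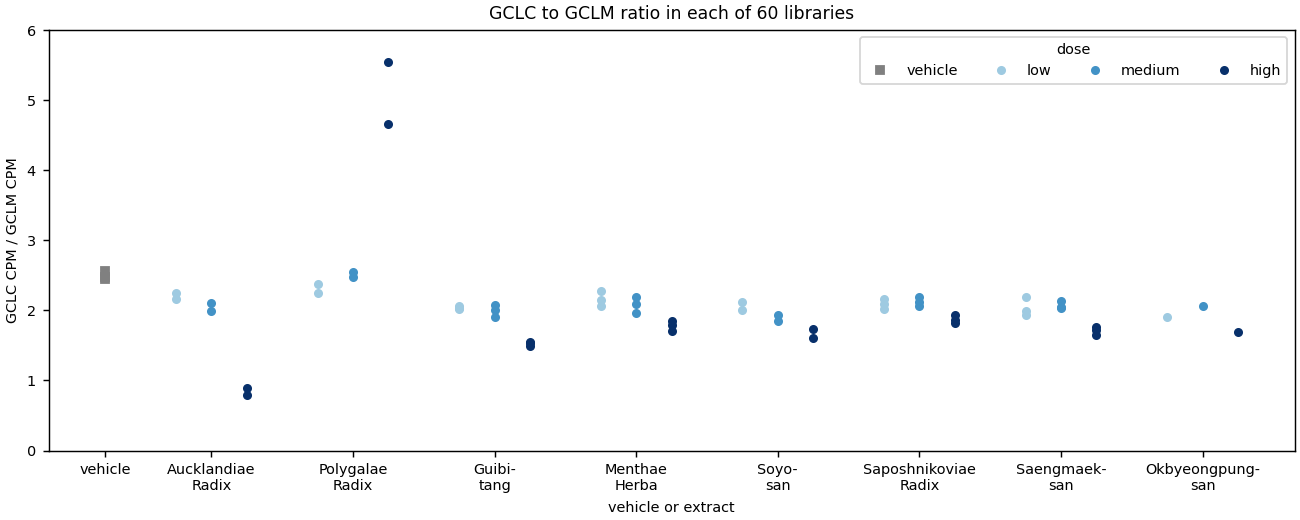
Ratio of GCLC to GCLM, both in TMM-scaled CPM, in each of the 60 libraries, by extract and dose (darker points for higher doses, grey squares for vehicle). The high dose of Aucklandiae Radix lies under 1 at 0.797 and 0.890, that of Polygalae Radix at 4.66 and 5.54, and the high doses of the other extracts lie below their own low doses.

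Guibi-tang at 500 ug/mL moved all 10 members, 9 upward, against 34.3% of all genes called, 16.8% higher and 17.5% lower. GCLM, TXNRD1 and SRXN1 had the largest log2 fold changes among the members. GCLM was at 88.4, 98.6 and 87.1 CPM at 500 ug/mL, against 40.4, 41.0 and 41.0 CPM at 20 ug/mL, 2.24-fold higher (log2 fold change 1.16 ± 0.05, adjusted p = 2.9e-22, edgeR's quasi-likelihood test with Benjamini-Hochberg adjustment). TXNRD1 was at 420.0, 433 and 409 CPM, against 189.5, 182 and 198 CPM, 2.22-fold higher, and SRXN1 at 181, 187 and 184 CPM, against 88.2, 84.0 and 88.8 CPM, 2.11-fold higher. GCLC was at 137, 147 and 134 CPM, against 81.4, 85.0 and 83.1 CPM, and GSR at 304, 338 and 309 CPM, against 190.4, 197 and 206 CPM, with log2 fold changes of 0.75 ± 0.05 and 0.68 ± 0.04. No library of the high dose overlapped one of the low dose in any member, and the share of all genes without overlap was not counted.

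The remaining members moved less after Guibi-tang. TXN was at 199, 144 and 205 CPM, against 119, 124 and 118 CPM, with a log2 fold change of 0.60 ± 0.07, and PRDX1 at 798, 631 and 782 CPM, against 560.1, 588 and 549 CPM, with 0.38 ± 0.05. In both genes high-dose replicate 2 lay well under the other 2 libraries. GPX2, the member that fell, was at 287, 217 and 282 CPM, against 357, 309.9 and 304 CPM, again lowest in replicate 2, with a log2 fold change of -0.31 ± 0.06, and of -0.18 without that library. GSS differed by 0.16 ± 0.04. SLC7A11 was at 62.1, 78.2 and 67.0 CPM, against 45.3, 51.2 and 55.2 CPM, and its log2 fold change of 0.45 ± 0.14 (adjusted p = 0.0095, edgeR's quasi-likelihood test with Benjamini-Hochberg adjustment) lost its call when low-dose replicate 1 was left out (0.37, adjusted p = 0.068) and when high-dose replicate 2 was (0.36, adjusted p = 0.078).

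Against Saengmaek-san, the other formula of set 13 at the same doses, the response to Guibi-tang differed in 8 of the 10 members, 7 with the higher response to Guibi-tang, where 19.6% of all genes differed, 9.40% with the higher and 10.2% with the lower response to it. The differences on the log2 scale were 0.94 ± 0.05 for TXNRD1, 0.85 ± 0.06 for SRXN1, 0.74 ± 0.08 for GCLM, 0.57 ± 0.07 for GCLC, 0.51 ± 0.05 for GSR, 0.48 ± 0.10 for TXN and 0.29 ± 0.07 for PRDX1, with adjusted p of at most 0.0012 by edgeR's quasi-likelihood test with Benjamini-Hochberg adjustment. GPX2 differed by -0.44 ± 0.09, in the other direction. GSS and SLC7A11 had differences of 0.13 (95% interval 0.02 to 0.25) and 0.37 (-0.03 to 0.78), which did not pass.

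Menthae Herba at 500 ug/mL raised 9 of the 10 members, and lowered none, against 10.8% of all genes called higher and 12.5% lower. SLC7A11 led, and 1 library carried much of its size. SLC7A11 was at 169, 88.5 and 75.8 CPM at 500 ug/mL, against 50.3, 49.8 and 54.8 CPM at 20 ug/mL, with a log2 fold change of 1.12 ± 0.14 (adjusted p = 9.7e-09, edgeR's quasi-likelihood test with Benjamini-Hochberg adjustment). Without high-dose replicate 1 the log2 fold change was 0.68 and still passed. GCLM was at 68.1, 66.5 and 62.0 CPM, against 36.5, 39.6 and 40.5 CPM, 1.69-fold higher. SRXN1, TXNRD1, TXN and GCLC followed with log2 fold changes of 0.52 ± 0.04, 0.50 ± 0.04, 0.50 ± 0.07 and 0.48 ± 0.05. GPX2, which fell after Aucklandiae Radix and Guibi-tang, was at 348, 355 and 358 CPM here, against 296, 297 and 294 CPM, higher by 0.26 ± 0.06. PRDX1 passed at 0.15 ± 0.05 but not when low-dose replicate 1 or replicate 3 of the high dose was left out (0.13 in both, adjusted p = 0.082 and 0.09 by edgeR). GSS, at 0.10 (95% interval 0.01 to 0.18), did not pass.

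Menthae Herba and Saposhnikoviae Radix, the herbs of set 12, were given at equal doses, and their dose responses differed in 6 of 10 members, all higher for Menthae Herba, against 10.6% of all genes, 4.34% with the higher and 6.28% with the lower response to it. The largest difference was in SLC7A11, at 1.32 ± 0.20 on the log2 scale (adjusted p = 2.6e-06, edgeR's quasi-likelihood test with Benjamini-Hochberg adjustment), and 0.89 without high-dose replicate 1 of Menthae Herba. GCLM differed by 0.42 ± 0.08, SRXN1 by 0.33 ± 0.06, GCLC by 0.31 ± 0.07, TXNRD1 by 0.29 ± 0.05 and TXN by 0.30 ± 0.10. The call on TXN was lost in 9 of the 12 fits that left out 1 library (0.26 to 0.32), and the calls on the other 5 genes in none. For GSR, GPX2, GSS and PRDX1 the differences were 0.05 (-0.06 to 0.15), 0.02 (-0.16 to 0.19), 0.01 (-0.11 to 0.13) and 0.01 (-0.13 to 0.14), with 95% intervals in parentheses, and none of these 4 passed.

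The 3 extracts with few called genes still moved a core of members. Soyo-san raised 6 of 10, where 2.13% of all genes were called higher and 1.83% lower. GCLM was at 59.7 and 61.2 CPM at 500 ug/mL, against 38.8 and 37.7 CPM at 20 ug/mL (log2 fold change 0.66 ± 0.07, adjusted p = 2.6e-09, edgeR's quasi-likelihood test with Benjamini-Hochberg adjustment). TXNRD1 was at 252 and 249 CPM, against 176 and 178 CPM, and SRXN1 at 114 and 122 CPM, against 81.4 and 86.7 CPM, with log2 fold changes of 0.50 ± 0.04 and 0.49 ± 0.05. GCLC, GPX2 and GSR rose by 0.35, 0.35 and 0.27. None of these 6 lost its call when a library was left out. SLC7A11 was at 62.0 and 65.3 CPM, against 47.4 and 47.3 CPM, and its log2 fold change of 0.43 ± 0.18 did not pass (adjusted p = 0.22 by edgeR), nor did those of TXN, GSS and PRDX1, at 0.25, 0.12 and 0.06.

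Saposhnikoviae Radix raised 5 of 10 members, where 0.389% of all genes were called higher and 0.442% lower. TXNRD1 was at 206, 214 and 206 CPM at 500 ug/mL, against 185, 179 and 175 CPM at 20 ug/mL, and GCLM at 50.4, 50.8 and 46.6 CPM, against 38.9, 39.8 and 38.8 CPM, with log2 fold changes of 0.21 ± 0.04 and 0.33 ± 0.06 (adjusted p = 0.00041 and 0.0005, edgeR's quasi-likelihood test with Benjamini-Hochberg adjustment). GSR rose by 0.20 ± 0.04. These 3 kept their call whichever library was left out, while GPX2, at 0.24 ± 0.06, lost it with each of the 6 libraries left out (0.22 to 0.28) and SRXN1, at 0.19 ± 0.04, with 4 of the 6 (0.18 in each). In an edgeR fit of the 2 groups alone 9 members were called, 8 of them higher and SLC7A11 lower (-0.21, adjusted p = 0.006). GCLC, TXN, PRDX1 and GSS were also higher at the high dose without passing, at 0.17, 0.20, 0.15 and 0.09. SLC7A11 was at 44.4, 46.0 and 44.3 CPM, against 51.7, 52.3 and 51.5 CPM, and its log2 fold change of -0.21 (95% interval -0.50 to 0.09) did not pass.

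Saengmaek-san raised 4 of 10, GCLM, SRXN1, TXNRD1 and GSR, where 0.206% of all genes were called higher and 0.230% lower. GCLM was at 52.2, 52.0 and 55.4 CPM, against 39.0, 40.6 and 39.1 CPM, with a log2 fold change of 0.42 ± 0.06 (adjusted p = 3e-06, edgeR's quasi-likelihood test with Benjamini-Hochberg adjustment). SRXN1 was at 99.9, 95.5 and 95.6 CPM, against 84.2, 79.5 and 83.3 CPM, and TXNRD1 at 204, 203 and 206 CPM, against 183, 172 and 175 CPM, higher by 0.23 ± 0.04 and 0.21 ± 0.04 on the log2 scale. GSR rose by 0.18 ± 0.04, a call that was lost without replicate 2 of either dose (0.16 in both). The other 6 members lay between 0.02 for GSS and 0.17 for GCLC.

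**Figure D4:**
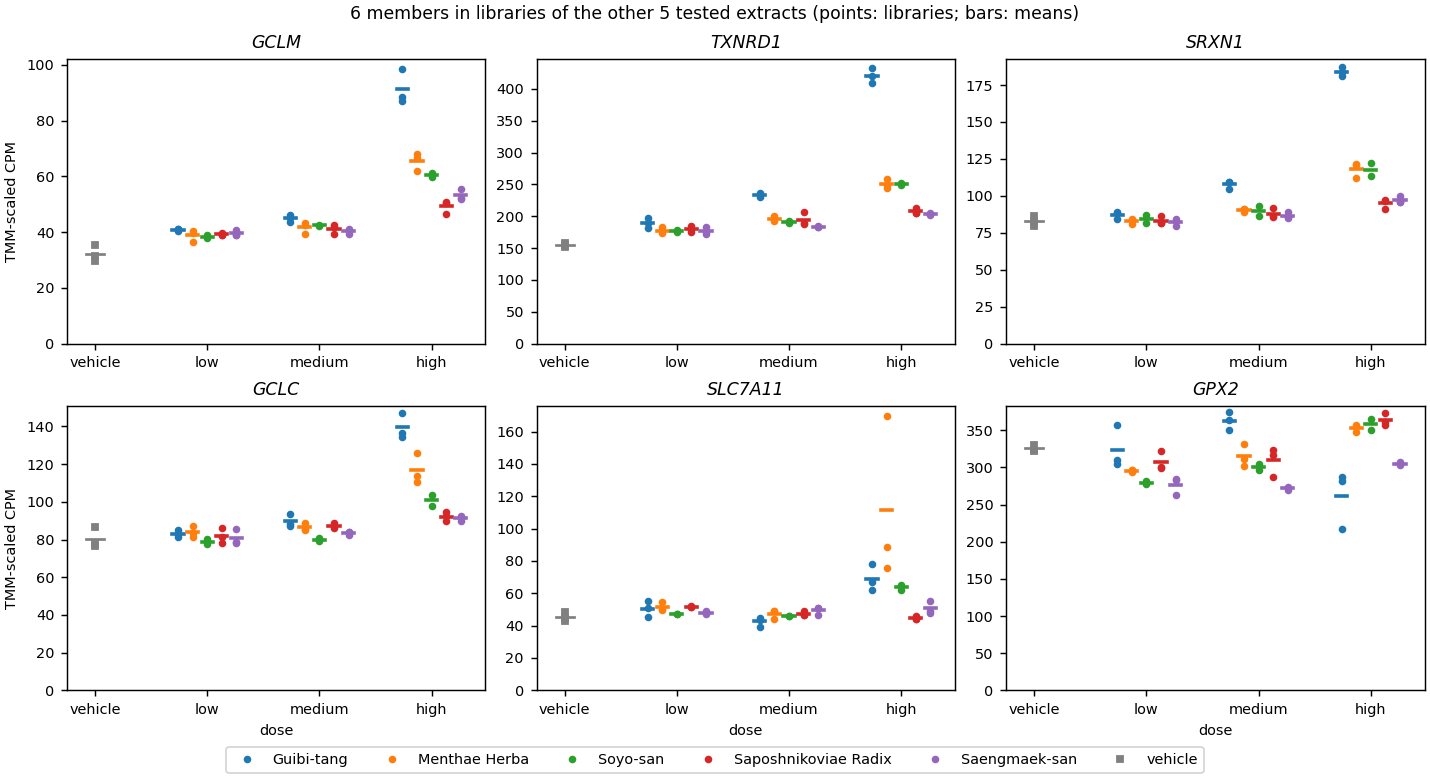
TMM-scaled CPM of GCLM, TXNRD1, SRXN1, GCLC, SLC7A11 and GPX2 by dose in the 5 further extracts with replicates and in vehicle, with a point for each library and a bar at each group mean. GCLM, TXNRD1 and SRXN1 are higher at the high dose in every extract and highest with Guibi-tang, a single Menthae Herba library stands at 169 CPM for SLC7A11, and GPX2 at the high dose is lowest with Guibi-tang.

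Medium doses, each between the low and the top dose, were set against the low doses, and members were called in 3 of the 7 extracts. Aucklandiae Radix at 56 ug/mL raised 6 of 10, against 4.35% of all genes called, 2.32% higher and 2.03% lower. TXNRD1 was at 283 and 285 CPM, against 208 and 209 CPM at 11.2 ug/mL, GCLM at 53.5 and 56.7 CPM, against 41.6 and 41.0 CPM, and SRXN1 at 132 and 131 CPM, against 97.9 and 99.5 CPM. Their log2 fold changes were 0.44 ± 0.04, 0.42 ± 0.07 and 0.41 ± 0.05 by edgeR's quasi-likelihood test with Benjamini-Hochberg adjustment, with GCLC, PRDX1 and GSR at 0.31, 0.26 and 0.24. PRDX1 lost its call in 3 of the 4 fits that left out 1 library (0.23 to 0.26). SLC7A11, called at the high dose, was at 53.1 and 56.0 CPM at the medium dose, against 55.5 and 57.1 CPM, with a log2 fold change of -0.05 (95% interval -0.40 to 0.30). GPX2 was at 338 and 306 CPM, against 374 and 380.1 CPM, and its -0.23 did not pass (adjusted p = 0.082 by edgeR).

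Guibi-tang at 100 ug/mL raised 5 of 10, TXN, TXNRD1, SRXN1, GSR and PRDX1, against 3.60% of all genes called, 1.86% higher and 1.74% lower. TXN was at 153, 157 and 153 CPM, against 119, 124 and 118 CPM at 20 ug/mL, TXNRD1 at 234, 231 and 236 CPM, against 189.5, 182 and 198 CPM, and SRXN1 at 109, 109 and 105 CPM, against 88.2, 84.0 and 88.8 CPM, with log2 fold changes of 0.36 ± 0.07, 0.30 ± 0.04 and 0.30 ± 0.04 by edgeR's quasi-likelihood test with Benjamini-Hochberg adjustment. GSR and PRDX1 rose by 0.22 and 0.17, PRDX1 not in 5 of the 6 fits that left out 1 library (0.15 to 0.18). GPX2, lower at the high dose, was at 375, 363 and 350.0 CPM, against 357, 309.9 and 304 CPM, and its 0.16 did not pass. Polygalae Radix at 50 ug/mL lowered PRDX1 alone, with a log2 fold change of -0.27 ± 0.06 and levels of 414 and 456 CPM, against 527 and 524 CPM at 10 ug/mL, where 8.41% of all genes were called, 3.33% higher and 5.09% lower. This call was lost in an edgeR fit of the 2 groups alone (adjusted p = 0.28) and without medium-dose replicate 2 (-0.20, adjusted p = 0.18). No member was called for Menthae Herba, Saposhnikoviae Radix, Saengmaek-san or Soyo-san by edgeR's quasi-likelihood test with Benjamini-Hochberg adjustment, where 3, 2, 0 and 3 members had an unadjusted p under 0.05 and 0.118%, 0.0118%, 0.00% and 0.00589% of all genes were called. DESeq2 called 1 member for Menthae Herba, TXNRD1 (0.14, adjusted p = 0.028).

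Vehicle differed from the low-dose libraries in 5 of the 10 members, a share near the 47.5% of all genes called. All 5 were higher at the low doses, as were 24.0% of all genes. Over the 18 low-dose libraries of the 7 extracts, TXN had a lowest, median and highest level of 104, 113 and 135 CPM, against 77.0, 77.1 and 77.1 CPM in vehicle. PRDX1 had 516, 545 and 613 CPM, against 382, 412 and 418 CPM, and GCLM had 36.5, 39.4 and 41.6 CPM, against 29.7, 31.4 and 35.4 CPM. In these 3 genes, and in TXNRD1 and GSR, no low-dose library overlapped a vehicle library. Here too the share of all genes without overlap was not counted. The log2 differences of pooled low doses from vehicle were 0.57 ± 0.06 for TXN, 0.44 ± 0.04 for PRDX1, 0.29 ± 0.05 for GCLM, 0.26 ± 0.03 for TXNRD1 and 0.13 ± 0.03 for GSR, all called by edgeR's quasi-likelihood test with Benjamini-Hochberg adjustment, where 47.5% of all genes were called, 24.0% higher and 23.5% lower. The low doses of GCLC, GSS, SLC7A11, SRXN1 and GPX2 overlapped vehicle and were not called. With the trend on GC content and length taken out, the differences were 0.21 for TXN and 0.17 for GCLM, still called, and GSS (0.12), SRXN1 (0.18) and GPX2 (-0.10) were then called too, with adjusted p of 0.00017, 2.1e-06 and 0.027 by edgeR. In any comparison with vehicle, treatment and set cannot be told apart, because vehicle carried a set label of its own.

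Against vehicle, the high dose raised 8 members with Aucklandiae Radix, 6 with Polygalae Radix, 9 each with Guibi-tang, Menthae Herba and Soyo-san, 8 with Saposhnikoviae Radix and 7 with Saengmaek-san, and lowered 2, 3 and 1 with Aucklandiae Radix, Polygalae Radix and Guibi-tang. Of all genes, 73.3%, 66.9%, 51.0%, 48.2%, 38.8%, 40.1% and 40.5% were called in these comparisons, taking Aucklandiae Radix, Polygalae Radix, Guibi-tang, Menthae Herba, Soyo-san, Saposhnikoviae Radix and Saengmaek-san in turn, so part of each count is background. Split by direction, 36.6% were higher and 36.7% lower with Aucklandiae Radix, 33.1% were higher and 33.8% lower with Polygalae Radix, 25.6% were higher and 25.4% lower with Guibi-tang, 24.0% were higher and 24.2% lower with Menthae Herba, 19.8% were higher and 19.0% lower with Soyo-san, 20.2% were higher and 19.9% lower with Saposhnikoviae Radix and 20.5% were higher and 20.0% lower with Saengmaek-san. All 7 share the same 3 vehicle libraries. The log2 differences for GCLM were 3.24 ± 0.06, 0.30 ± 0.07, 1.50 ± 0.06, 1.02 ± 0.06, 0.90 ± 0.06, 0.61 ± 0.06 and 0.72 ± 0.06 in that order. TXN, which fell against the low dose with Polygalae Radix, averaged 77.1 ± 10 CPM at the high dose and 77.1 ± 0.0181 CPM in vehicle (SD, n = 2 and 3), a log2 difference of 0.01. Of the 9 calls with Polygalae Radix, GCLM and GPX2 lost theirs without high-dose replicate 3 (0.15 and -0.09), SLC7A11 in 3 and GSR in 2 fits that left out 1 library. GPX2 with Saposhnikoviae Radix lost its call in all 6 such fits (0.14 to 0.17), and with Soyo-san GSS lost it in 2 (0.11 and 0.12) and SLC7A11 in 1 (0.45). The TXN value with Polygalae Radix was -0.57 when pooled low doses stood in for vehicle, and -0.16 with the trend on GC content and length taken out, both called. With pooled low doses in place of vehicle, 6 members were called with Polygalae Radix, 6 with Saposhnikoviae Radix, 4 with Saengmaek-san and 7 with Soyo-san. With Polygalae Radix, GCLM (0.02), SLC7A11 (0.24), GPX2 (-0.12) and GSR (-0.03) lost the calls they had against vehicle. TXN and PRDX1 then lost their calls with Saposhnikoviae Radix (0.11 and 0.09) and Saengmaek-san (0.07 and 0.05). GCLC lost its call with Saengmaek-san (0.12), and GSS, PRDX1 and SLC7A11 theirs with Soyo-san (0.10, 0.06 and 0.34).

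Across the high doses of all 8 extracts, the order of levels differed between genes. For TXNRD1, Aucklandiae Radix averaged 1183 CPM, followed by Guibi-tang at 421, Polygalae Radix at 363, Menthae Herba at 251 and Soyo-san at 251, whose libraries overlapped, Okbyeongpung-san at 238, then Saposhnikoviae Radix at 208 and Saengmaek-san at 204, which also overlapped, and vehicle at 155. SRXN1 kept nearly this order, with 634 CPM for Aucklandiae Radix, and with Polygalae Radix (188) and Guibi-tang (184) overlapping. GCLM placed Polygalae Radix last among the extracts, at 39.7 CPM, under Saposhnikoviae Radix at 49.3. For GCLC Polygalae Radix was instead the second highest, at 201 CPM, between Aucklandiae Radix at 256 and Guibi-tang at 139.5. GSR was highest with Guibi-tang and Aucklandiae Radix, at 318 and 315 CPM with overlapping libraries. PRDX1 ran from 737 CPM with Guibi-tang to 204 with Polygalae Radix, the only high-dose group below vehicle (404). GSS ran from 81.8 CPM with Menthae Herba to 54.7 with Aucklandiae Radix and 37.2 with Polygalae Radix, both below vehicle at 71.7. SLC7A11 was at 328 CPM with Aucklandiae Radix, and the groups from Menthae Herba (111) down to vehicle (45.3) each overlapped the next.

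Okbyeongpung-san, with 1 library per dose, has no replicate check and no test. GPX2 was at 288, 302 and 399.9 CPM at 20, 100 and 500 ug/mL, the highest single value of this gene in the study. GCLM was at 40.9, 42.1 and 56.9 CPM, TXNRD1 at 179.7, 191 and 238 CPM, and SRXN1 at 83.0, 90.4 and 112 CPM. The log2 differences of high from low dose in these 4 genes were 0.48, 0.48, 0.41 and 0.43, and SLC7A11 and GSS differed by 0.08 and 0.03.

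Genes around the members were read from lists and their counts are descriptions. Of 6 tested genes tied to NRF2 (NFE2L2 itself, its inhibitor KEAP1, its partner MAFG, and NQO1, HMOX1 and OSGIN1), 4 rose and 2 fell at the high dose of Aucklandiae Radix, 4 rose and 2 fell with Polygalae Radix, 4 rose and 2 fell with Menthae Herba, and 5 rose and none fell with Guibi-tang by edgeR's quasi-likelihood test with Benjamini-Hochberg adjustment. Of all genes, 69.4% were called with Aucklandiae Radix, 64.1% with Polygalae Radix, 23.3% with Menthae Herba and 34.3% with Guibi-tang in the same comparisons. HMOX1, heme oxygenase, averaged 676 CPM at the high and 48.9 CPM at the low Aucklandiae Radix dose (log2 fold change 3.80 ± 0.06), 124 and 47.6 CPM with Guibi-tang (1.38 ± 0.05), and 18.4 and 50.6 CPM with Polygalae Radix (-1.44 ± 0.07). NQO1, a quinone reductase often read as a marker of NRF2 activity, fell with Aucklandiae Radix (-0.58 ± 0.05) and Polygalae Radix (-1.58 ± 0.05) and rose with Menthae Herba (0.85 ± 0.04), Soyo-san (0.72 ± 0.05), Saposhnikoviae Radix (0.40 ± 0.04), Saengmaek-san (0.34 ± 0.04) and Guibi-tang (0.34 ± 0.04). OSGIN1, an oxidative stress gene, rose in 6 of the 7 extracts, by 1.58 with Aucklandiae Radix, 1.38 with Guibi-tang, 1.17 with Menthae Herba and 1.05 with Polygalae Radix among them. NFE2L2 RNA fell with Aucklandiae Radix (-0.67) and Menthae Herba (-0.32) and rose with Polygalae Radix (0.71), and KEAP1 rose in these 3 by 0.53, 0.26 and 0.51.

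The ATF4 genes were set beside SLC7A11. Of 6 tested, 5 rose and 1 fell with Aucklandiae Radix, where 33.9% of all genes were called higher and 35.5% lower. With Menthae Herba 5 rose, where 10.8% were called higher and 12.5% lower. These 2 herbs had the largest SLC7A11 changes. With Polygalae Radix 1 rose and 3 fell, beside 31.1% and 33.0%, and with Guibi-tang 3 fell, beside 16.8% and 17.5%. In either direction, 69.4%, 23.3%, 64.1% and 34.3% of all genes were called in these 4 comparisons. With Soyo-san, where SLC7A11 was higher without a call, 0 of 6 were called, beside 3.95% of all genes. A link between these genes and SLC7A11 was not tested. ASNS, asparagine synthetase, averaged 204 CPM at the high and 44.3 CPM at the low Aucklandiae Radix dose (log2 fold change 2.21 ± 0.10), 62.4 and 37.0 CPM with Menthae Herba (0.76 ± 0.08), and 6.58 and 31.6 CPM with Polygalae Radix (-2.25 ± 0.13), all called by edgeR's quasi-likelihood test with Benjamini-Hochberg adjustment. SESN2, a stress-induced sestrin, rose with Aucklandiae Radix (2.53 ± 0.15) and Menthae Herba (0.79 ± 0.13). With Guibi-tang, where SLC7A11 was higher by 0.45, ASNS was at 0.14 without a call. CHAC1, a glutathione-degrading enzyme of the same response, was too low to be tested.

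Among the wider thioredoxin genes more fell than rose with Aucklandiae Radix, Polygalae Radix and Guibi-tang. Of 19 further thioredoxin and peroxiredoxin genes, 3 rose and 13 fell with Aucklandiae Radix, 3 rose and 14 fell with Polygalae Radix and 2 rose and 8 fell with Guibi-tang by edgeR's quasi-likelihood test with Benjamini-Hochberg adjustment, with median log2 fold changes of -0.58, -0.64 and -0.20 beside -0.02, -0.01 and 0.00 over all genes, of which 69.4%, 64.1% and 34.3% were called. With Menthae Herba 3 rose and 2 fell, a share near the 23.3% of all genes called. The median log2 fold change was 0.05 with Menthae Herba, beside -0.01 with Soyo-san, 0.02 with Saposhnikoviae Radix and 0.02 with Saengmaek-san. The mitochondrial thioredoxin reductase TXNRD2, counterpart of TXNRD1, fell with Aucklandiae Radix, Polygalae Radix and Guibi-tang. Its log2 fold changes were -0.58 ± 0.09, -1.50 ± 0.10 and -0.32 ± 0.07 in that order. So did PRDX2, a cytosolic peroxiredoxin like PRDX1, with -1.01 ± 0.07, -1.89 ± 0.07 and -0.33 ± 0.05. TXNIP, which binds and inhibits thioredoxin, fell with Aucklandiae Radix (-1.50 ± 0.11) and Guibi-tang (-1.64 ± 0.09) and rose with Polygalae Radix (1.42 ± 0.09). Of 26 tested genes of glutathione use, recycling and breakdown, 8 rose and 11 fell with Aucklandiae Radix, 3 and 18 with Polygalae Radix, 8 and 5 with Guibi-tang, and 8 and 2 with Menthae Herba. Of all genes, 33.9% were called higher and 35.5% lower with Aucklandiae Radix, and 31.1% and 33.0% with Polygalae Radix. The shares were 16.8% and 17.5% with Guibi-tang, and 10.8% and 12.5% with Menthae Herba. The count with Aucklandiae Radix was near the share of all genes called, 69.4%. ABCC2, a canalicular pump that exports glutathione and its conjugates, was called higher in all 7 extracts, from 0.20 ± 0.04 with Saposhnikoviae Radix to 0.90 ± 0.04 with Guibi-tang, like TXNRD1 and SRXN1. Among the other glutathione peroxidases, where the following 2 genes were chosen after their values were seen, GPX1 fell with Aucklandiae Radix (-0.80 ± 0.09), Guibi-tang (-0.46 ± 0.07) and Polygalae Radix (-0.38 ± 0.08), and GPX4, which reduces lipid peroxides, was called in no extract, between -0.14 and 0.10.

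Genes of the route that makes cysteine from methionine were counted in the same way. Of its 7 genes, 6 fell and 1 rose with Aucklandiae Radix, and 6 fell and 1 rose with Polygalae Radix, where 35.5% and 33.0% of all genes were called lower and 69.4% and 64.1% were called in either direction. With Menthae Herba 4 rose and 2 fell, and with Guibi-tang 3 rose and 4 fell, with median log2 fold changes of 0.16 and -0.12. Of all genes, 10.8% were called higher and 12.5% lower with Menthae Herba, and 16.8% and 17.5% with Guibi-tang. CBS, which starts transsulfuration, averaged 18.8 CPM at the high and 56.4 CPM at the low Aucklandiae Radix dose (log2 fold change -1.58 ± 0.07, edgeR's quasi-likelihood test with Benjamini-Hochberg adjustment) and 21.8 and 49.6 CPM with Polygalae Radix (-1.18 ± 0.07). CTH, which releases the cysteine and is also an ATF4 target, was the gene that rose with Aucklandiae Radix (0.91 ± 0.14), and it fell with Polygalae Radix (-1.10 ± 0.17). MAT1A, the liver form of methionine adenosyltransferase, fell with Aucklandiae Radix (-2.17 ± 0.05) and rose with Guibi-tang (0.89 ± 0.04). TXNRD1 and GPX2 are selenoproteins, and of 7 genes of selenium supply 6 fell and 1 rose with Aucklandiae Radix, led by SELENOP, the secreted selenium carrier of the liver (-2.32 ± 0.07), while 2 fell and 1 rose with Polygalae Radix, where SELENOP was at -1.03 ± 0.07.

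Genes whose mean log2 CPM over the 25 groups ran most like a member were searched among 11458 genes, as a description across groups that share extracts, sets and the cell line. Nearest to GCLM by Pearson correlation were FAM177A1 (0.982), GLA, lysosomal alpha-galactosidase (0.974), and NDFIP2, an adaptor of ubiquitin ligases (0.963). Nearest to TXNRD1 were GPAT3, an acyltransferase of triglyceride synthesis (0.981), PFKFB3, a regulator of glycolysis (0.981), and the tight junction gene CLDN4 (0.973). SLC7A11 ran most like FHL2 (0.966), the kinase gene MAP2K1 (0.962) and RAB30 (0.957), and GPX2 most like MYBBP1A (0.958), ARHGEF16 (0.955) and FERMT1 (0.952). By rank correlation none of these 12 was among the 3 nearest. Their rank correlations were 0.787 to 0.842 with GCLM, 0.796 to 0.908 with TXNRD1, 0.507 to 0.689 with SLC7A11 and 0.626 to 0.655 with GPX2. The high dose of Aucklandiae Radix lay far from the other groups in SLC7A11 (328.5 against at most 111.2 CPM). It did so in GPX2 too (70.8 against at least 262.0 CPM). The weight of that group in the Pearson values was not tested. The rank-based leaders were the proteasome subunit PSMD11 for GCLM (0.948), RAB5IF for TXNRD1 (0.961), CRIPT for SLC7A11 (0.853) and PRPF31 for GPX2 (0.806).

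In GRCh38 with GENCODE 29, the synthesis genes lie apart, with GCLC (ENSG00000001084) on chromosome 6 from 53497341 to 53616970, GCLM (ENSG00000023909) on chromosome 1 from 93885205 to 93909456 and GSS (ENSG00000100983) on chromosome 20 from 34928433 to 34956027. Further members are SLC7A11 (ENSG00000151012) on chromosome 4 from 138164097 to 138242349, TXNRD1 (ENSG00000198431) on chromosome 12 from 104215779 to 104350305, SRXN1 (ENSG00000271303) on chromosome 20 from 646615 to 653370 and GPX2 (ENSG00000176153) on chromosome 14 from 64939152 to 64942905. The remaining 3 are TXN (ENSG00000136810) on chromosome 9 from 110243811 to 110256640, PRDX1 (ENSG00000117450) on chromosome 1 from 45511036 to 45523047 and GSR (ENSG00000104687) on chromosome 8 from 30678061 to 30727999. Some counts need care. RSEM divides a read that fits several genes, and all 60 values of PRDX1 were fractional, as were 32 of the values of GCLC, 17 of SLC7A11 and 6 of SRXN1. PRDX1 overlaps MMACHC and GPX2 overlaps CHURC1, each on the opposite strand, with at most 24.1 and 26.5 CPM for these neighbours, and TXNRD1 overlaps EID3 on the same strand, with at most 30.9 CPM. The strand setting of the counting is not given in the sources used here.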

How the data were processed

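RNA-seq was analysed in 60 HepG2 libraries of 25 groups. The deposited values are expected counts per gene that the authors made with RSEM 1.3.3; FastQC 0.11.9, Trim Galore 0.6.5 and STAR 2.7.3a are also named, per the submitters' processing notes. Which annotation release and strand setting they used is not given in the sources used here. GENCODE 29 held 57055 of the 60675 gene identifiers, and symbols, GC content and lengths were taken from it. Values were rounded to whole counts, as 9.97% of them were not whole. The 57 libraries of the 22 groups other than Okbyeongpung-san entered 1 fit (R 4.3.3, edgeR 4.0.16, limma 3.58.1) with TMM scaling, 35 residual degrees of freedom and 16982 genes that passed edgeR's filter at a minimum count of 10. There were 25 contrasts, each tested by quasi-likelihood and adjusted by Benjamini-Hochberg over all genes, with 0.05 as the threshold and 95% intervals that are not adjusted. The fit was tested on simulated data. Alternatives were DESeq2 1.42.0, RLE scaling, other filters, a replicate block, a trend on GC content and length, only the compared groups, pooled low doses in place of vehicle, and each library left out. No 2 libraries of a group differed by as little as sampling noise (chi-square per gene at least 1.78). Members and lists were chosen with earlier results of these data known. All members are named. From each list, up to 4 called genes with the largest change are named, and SLC3A2, CHAC1, TXNIP, NQO1, HMOX1, ASNS and KEAP1 always. For GCLM, SLC7A11, TXNRD1 and GPX2, the 3 genes of highest Pearson correlation over groups are named. A wortmannin control named in the design text is not analysed here. Promoter windows of GSS, SLC7A11, PRDX1 and GSR were not scanned. A gene first listed beside the members is not reported here.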

Additional observations from a re-analysis of the deposited data

Results flagged for a closer look

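Responses to the high against the low dose that differed between extracts of the same set are given here as differences in log2 fold change, each called by edgeR's quasi-likelihood test of the difference with Benjamini-Hochberg adjustment. For Aucklandiae Radix minus Polygalae Radix they were 0.31 for GCLC, 2.82 for GCLM, 0.58 for GSS, 0.62 for GSR, 2.22 for SLC7A11, 1.57 for TXNRD1, 1.33 for TXN, 1.62 for SRXN1, 1.55 for PRDX1 and -2.35 for GPX2. The GCLM difference was the largest and that of GCLC, its partner subunit, the smallest, and GPX2 alone had the lower response to Aucklandiae Radix. For Guibi-tang minus Saengmaek-san they were 0.57 for GCLC, 0.74 for GCLM, 0.51 for GSR, 0.94 for TXNRD1, 0.48 for TXN, 0.85 for SRXN1, 0.29 for PRDX1 and -0.44 for GPX2. For Menthae Herba minus Saposhnikoviae Radix they were 0.31 for GCLC, 0.42 for GCLM, 1.32 for SLC7A11, 0.29 for TXNRD1, 0.30 for TXN and 0.33 for SRXN1. GPX2 again went against the other members between Guibi-tang and Saengmaek-san, while between Menthae Herba and Saposhnikoviae Radix it was not called. Set 11 doses were not equal between the herbs, and those of sets 12 and 13 were.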

How the results depend on the processing

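The 250 member values kept their direction and their side of the threshold under RLE scaling. The labels' replicate numbers were also used as a replicate block, although same-numbered libraries did not deviate together (median correlation -0.00471 to 0.00977 by set), and the block changed the call of none of the 250. DESeq2 added 5 calls, and a filter at a mean of 1 CPM added 2 and lost 1. With no low-count filter 16 were gained and 4 lost, and in fits of the compared groups alone 18 gained and 3 lost. Taking out the trend on GC content and length, with or without the block, gained 20, lost 5 and reversed 2. The reversed values were GPX2 with Polygalae Radix, high against low dose (0.15 with the trend out, also with the replicate block), and TXN with Polygalae Radix, high dose against vehicle (-0.16 with the trend out, -0.17 with the replicate block too, -0.57 with pooled low doses replacing vehicle). GSR with Polygalae Radix against vehicle also reversed, to -0.03, with pooled low doses replacing vehicle. The cause was not tested in any of these. Of 1640 values with 1 library left out, 51 lost a call, 14 gained one and none reversed. Where that left a group with 1 library, the lone sample is assumed to vary like the other groups. Counts of called members moved by more than 1.5 times in 5 comparisons. For Polygalae Radix, medium against low dose (1 member), they were 3 with no filter, 2 with the 1 CPM filter, 3 with the trend out, 2 with the replicate block and trend, 0 with the 2 groups alone, 2 by DESeq2 and 0 to 3 with 1 library left out. For Menthae Herba, medium against low dose (0), they were 1 with the trend out, 2 with the replicate block and trend, 2 with the 2 groups alone and 1 by DESeq2. Saposhnikoviae Radix, high against low dose (5), had 8 with the trend out, 8 with the block as well, 9 with the 2 groups alone and 3 to 4 with 1 library left out. Pooled low doses against vehicle (5) had 8 with the trend out and 8 with the block as well, and Saengmaek-san, high dose against vehicle (7), had 4 with pooled low doses in place of vehicle. Counts over all genes also moved. With the trend out, and with replicate block and trend, they were 1255 and 1339 for Aucklandiae Radix at the medium against the low dose (739, and 1193 with the 2 groups alone), 1059 and 1133 for Guibi-tang at the medium dose (611), 1007 and 1094 for Soyo-san at the high dose (671), 363 and 466 for Saposhnikoviae Radix at the high dose (141) and 151 and 188 for Saengmaek-san at the high dose (74). The Saposhnikoviae Radix high-dose count was 250 with no filter and 389 with the 2 groups alone, and the Saengmaek-san one 253 and 113. At the medium against the low dose, Menthae Herba (20) had 127 with no filter, 49 with the trend out, 78 with the replicate block and trend, 231 with the 2 groups alone and 47 by DESeq2. Saengmaek-san (0 at the medium dose) had 126 with no filter, 1 with the trend out, 3 each with the replicate block, with block and trend and with the 2 groups alone, and 2 by DESeq2. Saposhnikoviae Radix (2 at the medium dose) had 92 with no filter, 4 with the replicate block, 5 with block and trend and 1 with the 2 groups alone. Soyo-san (1 at the medium dose) had 83 with no filter, 3 with block and trend and 7 with the 2 groups alone, and Polygalae Radix (1429 at the medium dose) had 20 with the 2 groups alone. With vehicle replaced by pooled low doses, high-dose counts were 165 for Saengmaek-san (6872 against vehicle), 503 for Saposhnikoviae Radix (6811) and 1521 for Soyo-san (6592). With 1 library left out, the medium-dose counts ran from 323 to 385 for Aucklandiae Radix, 305 to 466 for Guibi-tang, 6 to 16 for Menthae Herba, 361 to 3005 for Polygalae Radix, 0 to 2 for Saengmaek-san, 1 to 2 for Saposhnikoviae Radix and 1 to 2 for Soyo-san. The high-dose counts ran from 47 to 70 for Saengmaek-san, 57 to 102 for Saposhnikoviae Radix and 323 to 419 for Soyo-san. Depth did not limit the members, since each had at least 634 counts in every library, whereas 2 or 3 libraries per group limit every test.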
